A study of Homo sapiens with 6 samples.

Results

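The ATF4 arm of the integrated stress response was followed in PANC-1 cells through 10 genes, selected by symbol from the 58735 genes of the deposited table (positions are those of that table, on GRCh38): ATF4 itself, the transcription factors ATF3, ATF5, DDIT3 and CEBPB that act with or after it, and its outputs TRIB3, PPP1R15A, DDIT4, SESN2 and ASNS. PANC-1 is an established cell line of human pancreatic ductal adenocarcinoma. RNA-seq had been performed on 3 samples given a control siRNA (si-NC) and on 3 samples in which METTL16, an RNA methyltransferase, had been silenced (si-METTL16). All 6 samples are of this single line under the same culture conditions, the methods call the transfection stable and the samples biological triplicates, and 1 label of the control samples reads WT while their titles read si-NC. Each sample held between 15725298 and 18054436 counts, and METTL16 itself was at 91.5, 96.7 and 101 CPM in the si-NC samples and at 34.8, 33.9 and 34.9 CPM in the si-METTL16 samples. CPM are counts scaled to a common library size after TMM, a correction for library composition. The ductal epithelium markers KRT7, KRT8, KRT18, KRT19, SOX9, MUC1 and EPCAM exceeded 1 CPM in every sample. Acinar and islet markers were each at 0.296 CPM or less in every sample, with CPA1 and GCG at 0. Of the immune markers, CD3E was at 0 and PTPRC at up to 0.296 CPM, while CD68 was at 5.39 to 5.54 CPM in si-NC and 7.62 to 9.45 CPM in si-METTL16 samples and CD14 at 3.02 to 3.71 and 0.962 to 2.19 CPM. Of 4 fibroblast markers, COL1A1 carried nearly all of the signal (323 to 373 CPM in si-NC and 801 to 839 CPM in si-METTL16 samples), and DCN was at or near 0. The part of COL1A1, CD68 and CD14 in the results was not tested.

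The integrated stress response is a brake on protein synthesis. Kinases that sense amino acid shortage, unfolded protein in the endoplasmic reticulum, double-stranded RNA or heme shortage phosphorylate the initiation factor eIF2α, which lowers general translation and raises translation of the ATF4 mRNA through its upstream open reading frames. ATF4 then pairs with other bZIP factors and activates genes for amino acid supply, for restraint of the growth kinase mTORC1, and for feedback on the response. Because this control acts largely on translation, mRNA counts of ATF4 do not measure its protein.

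ATF4 with a C/EBP partner binds a composite DNA element, and members of the ATF and CREB group bind the cyclic AMP response element. The RefSeq promoter windows of the 10 genes (GRCh38.p14, 250 bases before to 50 after the start) were searched on both strands for the core of the first element, TGATGNAA, for the second, TGACGTCA, and for the endoplasmic reticulum stress element. None of these motifs contains another. The first was found in 2 of the 10 genes and in 3.62% of 34943 promoter windows, the second in 1 gene and in 1.84% of windows, and the third in 0 genes and in 0.0773% of windows. A gene was counted if any of its windows matched, while the shares are of single windows, so these units are unlike. These are matches of letters, not measured binding. Counts are per gene and do not tell which start a transcript used, so a match cannot be tied to the measured level. The 3 matches are shown on the strand of the gene with the motif in capitals. They begin at position -68 (ASNS), -191 (ATF3) and -58 (PPP1R15A) from the start, at chr7:97872458-97872487 (minus strand), chr1:212565205-212565234 (plus strand) and chr19:48872352-48872381 (plus strand).
ASNS: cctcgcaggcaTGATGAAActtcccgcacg
ATF3: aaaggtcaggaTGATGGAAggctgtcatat
PPP1R15A: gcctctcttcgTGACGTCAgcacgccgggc

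After METTL16 silencing, 2 of the 10 genes changed, in opposite directions, and ATF4 mRNA was not called. DDIT4 fell to 58.2% of its control level and PPP1R15A rose 1.90-fold. The groups were compared over all 15089 genes with enough counts, all 10 genes among them, with edgeR's quasi-likelihood test, and genes with a Benjamini-Hochberg adjusted p under 0.05 were called. The 2 calls of 10 stand beside 35.9% of all tested genes called. No further member had an unadjusted p under 0.05, and the si-NC and si-METTL16 values lay apart for 2 of the 10 genes, against 50.9% of all tested genes. The median log2 fold change of the 10 genes was -0.05, and that of all tested genes was -0.0045.

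**Figure D1:**
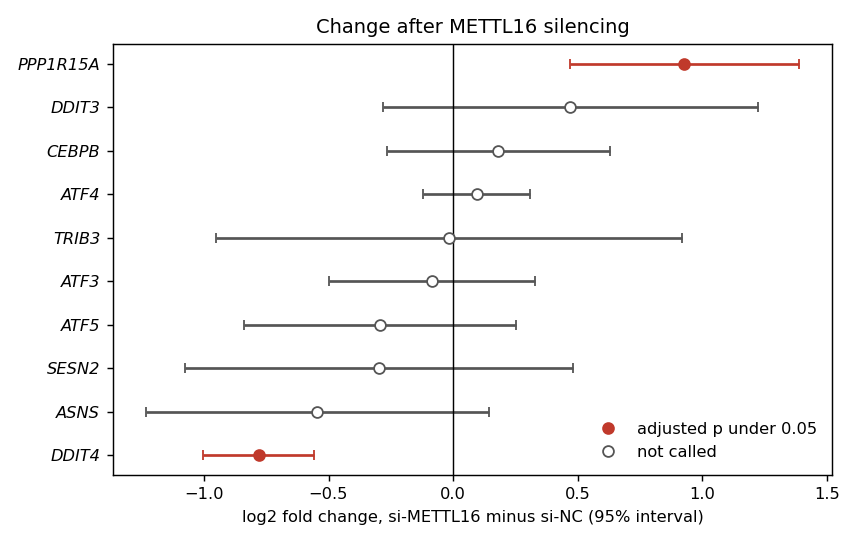
Log2 fold change of each gene, si-METTL16 minus si-NC, with its 95% interval from the edgeR fit over 3 samples per group. Filled red points are genes with an adjusted p under 0.05, PPP1R15A at 0.93 and DDIT4 at -0.78. The intervals of the other genes include 0, and that of ATF4 is narrow while that of TRIB3 is wide.

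DDIT4 (ENSG00000168209, chr10:72273920-72276036, plus strand) encodes REDD1, an inhibitor of mTORC1. It was at 236, 247 and 277 CPM in si-NC replicates 1, 2 and 3 and at 165, 138 and 139 CPM in the si-METTL16 replicates, so every silenced sample lay below every control sample. In RNA from bulk cells, fewer cells with a transcript and less transcript per cell cannot be told apart. This was a log2 fold change of -0.78 (SE 0.09), or 0.582-fold with a 95% interval of 0.499-fold to 0.680-fold (edgeR adjusted p = 0.00101). Without each sample in turn it stayed between -0.87 and -0.71 and was called each time.

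PPP1R15A (ENSG00000087074, chr19:48872392-48876057, plus strand) encodes GADD34, the stress-induced subunit that directs protein phosphatase 1 to eIF2α and so ends the response. It was at 32.9, 30.4 and 31.9 CPM in the si-NC samples, the tightest group among the 10 genes apart from ATF4 in silenced cells, and at 80.0, 55.7 and 45.4 CPM in the si-METTL16 samples. The groups did not overlap, although the silenced samples differed among themselves by 1.76-fold. It rose by 0.93 on the log2 scale (95% interval 0.47 to 1.39, edgeR adjusted p = 0.00982), and it ranged from 0.67, without si-METTL16 replicate 1, to 1.10 without si-METTL16 replicate 3, called each time. Its constitutive relative PPP1R15B, which serves the same phosphatase in unstressed cells, averaged 181 ± 7.51 CPM with control siRNA and 180 ± 18.1 CPM after silencing (SD, n = 3 each), with a log2 fold change of -0.02 (95% interval -0.21 to 0.18).

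**Figure D2:**
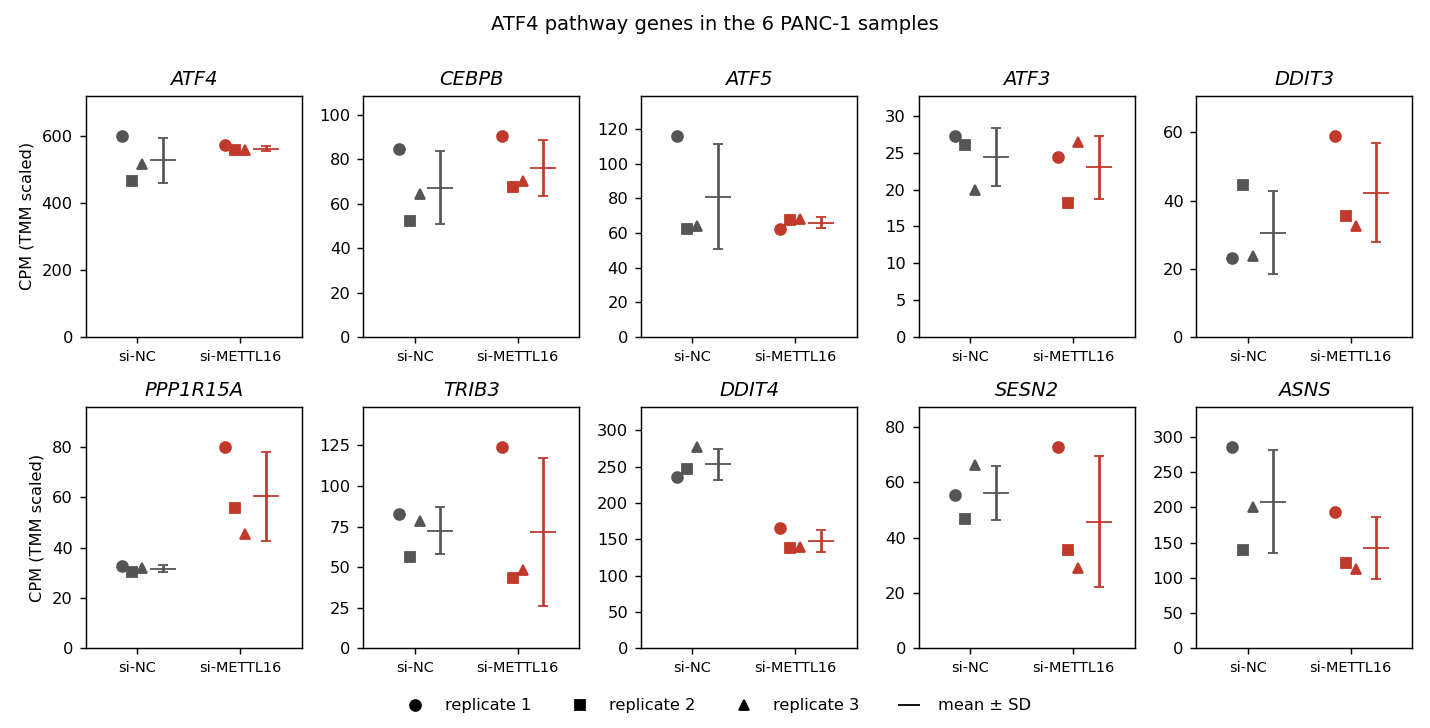
CPM of each gene in every sample, with circles, squares and triangles for replicates 1, 2 and 3, gray for si-NC and red for si-METTL16, and a bar for the mean with its SD; each panel has its own axis from 0. DDIT4 and PPP1R15A have groups that lie apart, and si-METTL16 replicate 1 stands above the other silenced samples for TRIB3 (124 against 43.2 and 48.0 CPM) and SESN2 (72.8 against 35.5 and 29.1 CPM).

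Among the bZIP transcription factors, none passed the test. ATF4 (ENSG00000128272, chr22:39519695-39522685, plus strand) had the highest deposited FPKM of the 10 genes, 129 ± 16.6 in the control and 135 ± 1.25 in the silenced cells (SD, n = 3 each). FPKM are fragments scaled to library size and to a length for each gene, and the lengths used are not given in the sources used here. Its CPM was 600, 465 and 515 in the si-NC replicates and 571, 558 and 557 in the si-METTL16 replicates, so the silenced samples lay inside the range of the controls. For ATF4 the log2 fold change was 0.09 (95% interval -0.12 to 0.31, edgeR adjusted p = 0.457). This interval reaches from 0.920-fold to 1.24-fold. With 1 sample left out, the log2 fold change of ATF4 ranged from 0.0055 (adjusted p = 0.964) without si-NC replicate 2 to 0.19 (adjusted p = 0.0633) without si-NC replicate 1. The processed copy ATF4P3 had 754 counts over the 6 samples against 55154 for ATF4, and reads of such copies could be split between the genes.

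CEBPB (ENSG00000172216, chr20:50190734-50192689, plus strand), a partner of ATF4 in the inflammatory and nutrient response, was at 84.6, 52.2 and 64.3 CPM in si-NC and at 90.4, 67.3 and 70.2 CPM in si-METTL16 samples, with overlapping groups (log2 fold change 0.18, 95% interval -0.27 to 0.63). ATF5 (ENSG00000169136, chr19:49928702-49933935, plus strand), which shares the translational control of ATF4, was at 116, 62.5 and 64.3 CPM in si-NC and at 62.3, 67.8 and 68.1 CPM in si-METTL16 samples. A single control sample, replicate 1, stood above the other 5, which lay within 62.3 to 68.1 CPM. The log2 fold change of ATF5 was -0.29 with all samples (95% interval -0.84 to 0.25) and 0.05 without si-NC replicate 1. ATF3 (ENSG00000162772, chr1:212565334-212620777, plus strand), an early responder that also represses transcription, had the lowest FPKM of the 10 genes. It was at 2.53 ± 0.402 FPKM in si-NC and 2.35 ± 0.443 FPKM in si-METTL16 cells (SD, n = 3 each). Its CPM overlapped, at 20.0 to 27.3 and 18.1 to 26.4, with a log2 fold change of -0.08 (95% interval -0.50 to 0.33).

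DDIT3 (ENSG00000175197, chr12:57516588-57521737, minus strand) encodes CHOP, a partner of ATF4 linked to cell death in prolonged stress. It was at 23.3, 44.5 and 23.7 CPM in si-NC and at 58.9, 35.5 and 32.5 CPM in si-METTL16 samples. The control replicate 2 lay above 2 of the silenced samples, and the other 2 controls lay below all of them. Its log2 fold change was 0.47 (95% interval -0.28 to 1.22, edgeR adjusted p = 0.29), and with 1 sample left out it ranged from 0.15 (adjusted p = 0.735) without si-METTL16 replicate 1 to 0.84 (adjusted p = 0.0616) without si-NC replicate 2. DDIT3 overlaps the opposite-strand genes MARS by 982 and MBD6 by 1028 bases of its 5150, and ATF5 overlaps NUP62 by 1062 bases of its 5234. Whether counting used strand is not given in the sources used here, so these counts are uncertain.

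TRIB3 (ENSG00000101255, chr20:362835-397559, plus strand), a pseudokinase induced by ATF4 and DDIT3 that restrains ATF4 in turn, was at 82.8, 56.2 and 78.6 CPM in si-NC and at 124, 43.2 and 48.0 CPM in si-METTL16 samples. The silenced samples fell on both sides of the controls, 1 above all of them and 2 below all of them. The log2 fold change was -0.02 (95% interval -0.95 to 0.92, edgeR adjusted p = 0.978), the widest interval of the 10 genes. With 1 sample left out it ranged from -0.67 (adjusted p = 0.0342) without si-METTL16 replicate 1 to 0.24 (adjusted p = 0.678) without si-METTL16 replicate 2, and TRIB3 was called in the first of these fits alone.

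SESN2 (ENSG00000130766, chr1:28259527-28282491, plus strand), sestrin 2, a leucine sensor that holds mTORC1 down, likewise had its highest value in si-METTL16 replicate 1. It was at 55.5, 46.9 and 66.3 CPM in si-NC and at 72.8, 35.5 and 29.1 CPM in si-METTL16 samples. Its log2 fold change was -0.30 (95% interval -1.08 to 0.48, edgeR adjusted p = 0.519) and, with 1 sample left out, ranged from -0.81 (adjusted p = 0.0172) without si-METTL16 replicate 1 to -0.05 (adjusted p = 0.911) without si-METTL16 replicate 3. No other sample left out gave a call for SESN2. Without si-METTL16 replicate 1, 4 of the 10 genes were called, 1 higher and 3 lower, beside 29% of all genes tested there.

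ASNS (ENSG00000070669, chr7:97852118-97872542, minus strand), asparagine synthetase, makes asparagine from aspartate and glutamine and carries the composite element shown above. It was at 286, 139 and 200 CPM in si-NC and at 193, 122 and 113 CPM in si-METTL16 samples, so 1 silenced sample lay within the control range and 2 below it. For ASNS the log2 fold change was -0.55 (95% interval -1.23 to 0.14, edgeR adjusted p = 0.187) and ranged from -0.83, without si-METTL16 replicate 1, to -0.26 without si-NC replicate 1.

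The spread within the groups was wide for these genes. The biological coefficient of variation from edgeR exceeded the median of all tested genes (13.5%) for 8 of the 10, with TRIB3 at 34.3%, SESN2 at 29.0% and DDIT3 at 28.0%, and lay below it for ATF4 (10.4%) and DDIT4 (10.6%). si-METTL16 replicate 1 was the highest sample of its group for 8 of the 10 genes, where it was highest for 32.6% of all tested genes, and si-NC replicate 2 was the lowest of its group for 7 of the 10, against 33.6%. si-NC replicate 1 was the highest control for 7 of the 10, against 35.4%. si-METTL16 replicate 1 being highest and si-NC replicate 2 lowest both held for 6 of the 10 genes and for 12.6% of all. si-METTL16 replicate 1 reached at least 1.5 times the mean of the other 2 silenced samples for 5 of the 10 genes (TRIB3, SESN2, DDIT3, ASNS and PPP1R15A), against 4.8% of all tested genes. These orders were chosen for description after the values were seen. Over the 10 genes, the root mean square log2 difference was 0.71 and 0.76 between si-METTL16 replicate 1 and replicates 2 and 3 and 0.23 between replicates 2 and 3. Over all tested genes the same values were 0.51, 0.52 and 0.51. In the controls, replicates 1 and 2, 1 and 3, and 2 and 3 differed by 0.61, 0.39 and 0.43 over the 10 genes. Over all tested genes these control values were 0.48, 0.48 and 0.46. The 10 genes lay between percentiles 50.5 and 98.7 of level, so the values over all tested genes include genes with lower counts. METTL16 itself was at nearly the same level in the 3 silenced samples, as given above.

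**Figure D3:**
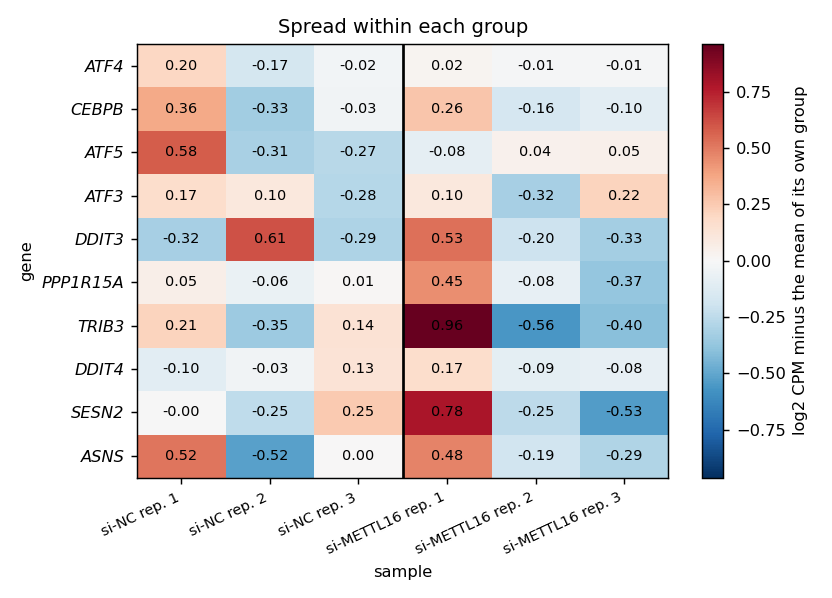
Log2 CPM of each gene (rows) in each sample (columns) minus the mean of the sample's own group, red above and blue below that mean. In the silenced group, TRIB3 (0.96), SESN2 (0.78), DDIT3 (0.53) and ASNS (0.48) were highest in replicate 1. In the control group, CEBPB, TRIB3, SESN2 and ASNS were lowest in replicate 2 and DDIT3 was highest there.

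The genes whose profile over the 6 samples was nearest to that of ATF4, by the root mean square difference of centred log2 CPM, were ERP44 (0.0264), FIGN (0.0414), POLR3D (0.0421), SLC2A13 (0.0423) and ABCA3 (0.0423). The 10 genes themselves were left out of this ranking. None of the 5 was called (edgeR adjusted p from 0.333 to 0.728), which follows from their choice by likeness to ATF4, itself not called.

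The steps before ATF4 were examined next. Of the 4 kinases of eIF2α, EIF2AK3 (PERK, the sensor of unfolded protein) rose from 38.4 ± 3.01 to 53.9 ± 7.57 CPM (SD, n = 3 each), a log2 fold change of 0.49 with an edgeR adjusted p of 0.0189. This call was lost without si-NC replicate 2 or 3 or si-METTL16 replicate 1 or 2, with an adjusted p between 0.0564 and 0.0646. EIF2AK4 (GCN2, the sensor of amino acid shortage) was at 78.8 and 68.0 CPM, a log2 fold change of -0.21 (edgeR adjusted p = 0.07, and 0.0351 without si-METTL16 replicate 2). EIF2AK2 (PKR, the sensor of double-stranded RNA) had a log2 fold change of -0.18 (95% interval -0.37 to 0.0037), and EIF2AK1 (HRI, the sensor of heme shortage) one of 0.02 (95% interval -0.15 to 0.18).

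Among 6 kinase regulators and relay genes, 1 rose and 1 fell, beside 35.9% of all tested genes called in either direction. GCN1, the ribosome-bound activator of GCN2, rose by 0.27 on the log2 scale (edgeR adjusted p = 0.013). OMA1, the mitochondrial protease that passes mitochondrial stress to HRI, had a log2 fold change of -0.49 (edgeR adjusted p = 0.0206), and its call was lost without si-NC replicate 1 or si-METTL16 replicate 2 or 3 (adjusted p from 0.0617 to 0.0652). Of 9 genes listed for eIF2 and its exchange factor eIF2B, 2 were called, both higher, beside 18.4% of all tested genes called higher. These 9 include EIF2A, a separate initiation factor that is not a subunit of either. EIF2S1, which encodes eIF2α, rose from 179 ± 4.41 to 216 ± 11.3 CPM (SD, n = 3 each; log2 fold change 0.27, edgeR adjusted p = 0.0116). EIF2B5, the catalytic subunit of the exchange factor, had a log2 fold change of 0.28 (edgeR adjusted p = 0.0186), not called without si-NC replicate 2 (0.0644) or si-METTL16 replicate 2 (0.0624). The median log2 fold changes of these lists were -0.08 for the kinases, 0.11 for the regulators and 0.25 for the last 9 genes. That of all tested genes was -0.0045.

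Of 17 tested genes listed as relatives of the 10 genes, 7 rose and 4 fell, beside 18.4% and 17.5% of all tested genes. Without si-METTL16 replicate 3, 7 rose and 2 fell, beside 29.4% of all genes called in either direction. CEBPZ, called higher with all samples (log2 fold change 0.30, edgeR adjusted p = 0.00803), shares the C/EBP name but is not a bZIP factor. TRIB1 and TRIB2, the other Tribbles pseudokinases, rose from 51.6 ± 3.79 to 112 ± 16.8 CPM and from 51.1 ± 4.88 to 78.8 ± 9.94 CPM (SD, n = 3 each), with log2 fold changes of 1.12 and 0.63 (edgeR adjusted p = 5.67e-04 and 0.0055). CEBPD, another C/EBP factor, rose from a low level of 1.64 to 4.80 CPM (log2 fold change 1.55, edgeR adjusted p = 0.00643). JDP2, a bZIP repressor of the AP-1 and ATF sites, fell from 25.7 ± 9.95 to 8.59 ± 2.17 CPM (log2 fold change -1.58, edgeR adjusted p = 0.00787). ATF6, a stress sensor of the endoplasmic reticulum from another branch, fell from 114 to 69.3 CPM (log2 fold change -0.72, edgeR adjusted p = 0.0029). SESN1, a sestrin known as a p53 target, had a log2 fold change of -0.39 (edgeR adjusted p = 0.0281), lost without si-NC replicate 1 or 2 or si-METTL16 replicate 1 or 3 (adjusted p from 0.0674 to 0.0836). SESN3 was at 2.16 and 2.57 CPM with a log2 fold change of 0.25 (95% interval -0.35 to 0.85), and CEBPG, the most common partner of ATF4, had one of 0.05 (95% interval -0.40 to 0.49).

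Known ATF4 targets outside the 10 genes were read from 4 lists, for amino acid synthesis, amino acid transport, tRNA charging and other stress outputs. Of their 57 tested genes, 17 fell and 6 rose, or 29.8% and 10.5%, beside 17.5% and 18.4% of all tested genes. Their median log2 fold change was -0.31. The lists were chosen with earlier results of these data known, and they were pooled after their values were seen. The counts depended on single samples. Without si-METTL16 replicate 1, 26 fell and 3 rose, without si-NC replicate 2, 26 fell and 2 rose, and without si-METTL16 replicate 2, 10 fell and 4 rose. Of all genes tested in those fits, 29%, 29.2% and 28% were called in either direction. With any 1 sample left out this share lay between 26.9% and 29.4%, which stands beside the counts of single lists given below. si-METTL16 replicate 1 was the highest sample of its group for 46 of the 57 genes (80.7%, against 32.6% of all tested genes), and si-NC replicate 2 the lowest of its group for 50 (87.7%, against 33.6%).

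**Figure D4:**
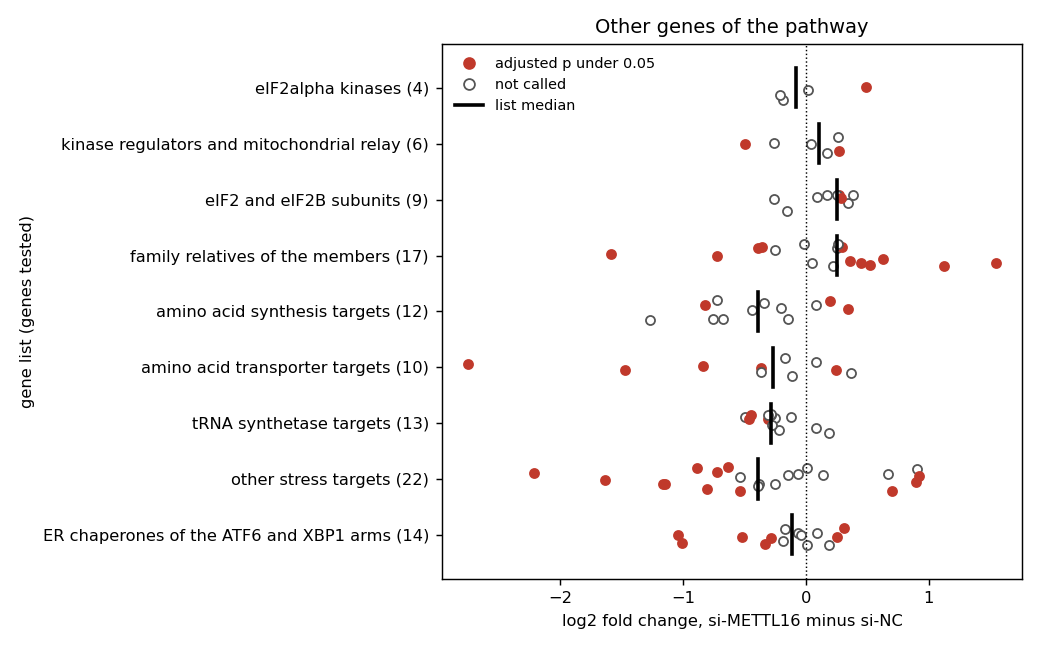
Log2 fold change, si-METTL16 minus si-NC, of each tested gene in 9 lists, with the number tested in parentheses; filled red points have an adjusted p under 0.05, open points do not, and the black bar is the list median. The medians of the 4 target lists lie between -0.39 and -0.27. That of the list of eIF2 and eIF2B subunits, which includes EIF2A, lies at 0.25.

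In the amino acid synthesis list, 1 of 12 genes fell and 2 rose (median log2 fold change -0.39), or 8.33% and 16.7%, beside 17.5% and 18.4% of all tested genes. PSPH, the last enzyme of serine synthesis, fell from 62.8 ± 10.3 to 35.6 ± 3.53 CPM (SD, n = 3 each; log2 fold change -0.82, edgeR adjusted p = 0.00404). GOT1 and ALDH18A1, enzymes of aspartate and proline metabolism, had log2 fold changes of 0.35 and 0.20 (edgeR adjusted p = 0.0241 and 0.0409). The call of GOT1 was kept only without si-METTL16 replicate 3 (adjusted p up to 0.0833 without another sample), and that of ALDH18A1 was lost without any of the 6 samples (adjusted p from 0.0651 to 0.136). Without si-METTL16 replicate 1 or without si-NC replicate 2, 5 genes of this list were called lower and 0 higher.

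Among the 10 transporters, 4 fell and 1 rose (median log2 fold change -0.27), or 40% and 10%, beside 17.5% and 18.4% of all tested genes. SLC7A11, the cystine and glutamate exchanger, had 168, 112 and 150 CPM in si-NC and 84.1, 38.1 and 32.7 CPM in si-METTL16 samples (log2 fold change -1.47, edgeR adjusted p = 0.0169), not called without si-NC replicate 1 (0.0534) or si-METTL16 replicate 2 (0.0576). SLC43A1, a transporter of large neutral amino acids, fell from 5.68 to 0.834 CPM (log2 fold change -2.75, edgeR adjusted p = 0.00354). SLC36A4 had a log2 fold change of 0.24 (edgeR adjusted p = 0.0258), lost without si-NC replicate 2 or 3 or si-METTL16 replicate 1 or 3 (adjusted p from 0.0635 to 0.0836). In this list 1 gene was called lower without si-NC replicate 1 or si-METTL16 replicate 2, and 2 without replicate 3 of either group.

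In the tRNA charging list, 3 of 13 genes fell and 0 rose (median log2 fold change -0.28). The 23.1% that fell stands beside 17.5% of all tested genes lower and 18.4% higher. XPOT in this list exports tRNA and does not charge it (log2 fold change -0.31, edgeR adjusted p = 0.114). Among the controls, si-NC replicate 2 was lowest for all 13. NARS, which charges the tRNA for asparagine, the product of ASNS, fell from 389 ± 12.2 to 282 ± 16.7 CPM (SD, n = 3 each; log2 fold change -0.47, edgeR adjusted p = 0.00132). EPRS, which charges the tRNAs for glutamate and proline, fell by 0.45 on the log2 scale (edgeR adjusted p = 0.00967). Without si-NC replicate 2, 7 of the 13 fell, and without si-METTL16 replicate 1, 5.

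Of the 22 tested genes with other stress functions, 9 fell and 3 rose (median log2 fold change -0.39). These are 40.9% and 13.6%, beside 17.5% and 18.4% of all tested genes. CHAC1, an enzyme that degrades glutathione, was at 88.8, 72.5 and 80.4 CPM in si-NC and at 21.4, 8.72 and 21.9 CPM in si-METTL16 samples (log2 fold change -2.21, edgeR adjusted p = 0.00199). INHBE, an activin subunit, was below 1 CPM in every sample (log2 fold change -1.64, edgeR adjusted p = 0.014, and 0.0578 and 0.0526 without si-NC replicate 3 and si-METTL16 replicate 2). ERO1A, the oxidase of disulfide formation in the endoplasmic reticulum, rose from 124 ± 5.15 to 236 ± 13.4 CPM (SD, n = 3 each; log2 fold change 0.92, edgeR adjusted p = 1.61e-04). MAP1LC3B, the LC3 protein of autophagosomes, rose from 78.9 ± 7.84 to 147 ± 46.3 CPM (SD, n = 3 each; log2 fold change 0.89, edgeR adjusted p = 0.0149, and 0.0517 without si-NC replicate 2).

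Genes of the neighbouring ATF6 and XBP1 branches, which supply chaperones to the endoplasmic reticulum, had 5 of 14 lower and 2 higher, beside 17.5% and 18.4% of all tested genes (median log2 fold change -0.12). XBP1, the factor of the second branch, fell from 91.5 ± 15.3 to 44.5 ± 3.38 CPM, and CRELD2, a folding factor, from 30.1 ± 1.86 to 14.9 ± 0.318 CPM (SD, n = 3 each), with log2 fold changes of -1.04 and -1.01 (edgeR adjusted p = 0.00105 and 3.24e-04). PDIA4, a disulfide isomerase, and DNAJB11, a co-chaperone, rose by 0.31 and 0.25 on the log2 scale (edgeR adjusted p = 0.00767 and 0.0173). The call of DNAJB11 was lost without si-NC replicate 2 (0.0542) or si-METTL16 replicate 1 (0.0579). In this list, 3 genes were called lower without si-NC replicate 1, 2 or 3 or si-METTL16 replicate 1.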

How the data were processed

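RNA-seq of 6 PANC-1 samples, 3 si-NC and 3 si-METTL16, was used, grouped by sample title. The authors deposited raw counts per gene and FPKM, with HISAT2 2.0.4, StringTie 1.3.0 and GRCh38 named in the submitters' processing notes. The counting program, annotation release and use of strand are not given in the sources used here. For 27 genes whose symbols had become calendar dates, the symbol was restored from the gene identifier. Genes passing filterByExpr (minimum count 10, minimum total count 15) were scaled by TMM and tested by edgeR's quasi-likelihood F-test (glmQLFit, glmQLFTest; version 4.0.16, R 4.3.3) over 15089 genes, with Benjamini-Hochberg adjustment. Standard errors were the fold change over the root of F, and 95% intervals used the total degrees of freedom. An exact permutation test of 3 against 3 samples cannot go below p = 0.1. Scripts were tested on simulated data. Alternatives included limma 3.58.1, the tool of the study's methods, and DESeq2 1.42.0. The 10 genes and the 9 lists, written from general knowledge, were chosen with earlier results of these data known, and the pooling of the 4 target lists after their values were seen. All kinases, 8 fixed relatives and subunits, and the 2 highest and 2 lowest called genes of every other list were named. DDIT4L, 1 of the 8, was not tested. Promoters came from RefSeq (GRCh38.p14). The result for 1 further cell type marker is not reported here.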

Additional observations from a re-analysis of the deposited data

How the results depend on the processing

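Over the 10 genes, DDIT4 and PPP1R15A kept their direction and call in each of the 15 alternative fits, with log2 fold changes from -0.87 to -0.71 and from 0.67 to 1.10 when a sample was left out and an adjusted p for PPP1R15A of up to 0.05, just under the threshold. Of the other 8, calls arose for TRIB3 and SESN2 without si-METTL16 replicate 1 and for ASNS with the replicate block. With the replicate block, 2 of the 10 genes were called lower, ASNS among them (log2 fold change -0.53, edgeR adjusted p = 0.0314, between 0.0314 and 0.515 over all its alternatives), and 1 higher, beside 33.2% of all genes called. Same-numbered samples correlated in their deviations from the group means at 0.0253, 0.0371 and 0.0298 across genes, each sample best with its own number. The main fit did not take the numbers as pairs, and a correlation over all tested genes cannot settle pairing for these 10. With the block, the standard error went from 0.293 to 0.126 for ASNS, from 0.190 to 0.083 for CEBPB and from 0.398 to 0.256 for TRIB3. Among the 10 genes it rose only for ATF3 (0.176 to 0.190) and DDIT4 (0.0949 to 0.102). Leaving out 1 sample at a time, between 1 and 3 of the 10 genes were called lower, and log2 fold changes changed sign for ATF3 (-0.212 to 0.0574), ATF5 (-0.46 to 0.0534), TRIB3 (-0.67 to 0.24), CEBPG (-0.15 to 0.19), EIF2AK1 (-0.0247 to 0.0654) and PPP1R15B (-0.10 to 0.0339). EIF2AK1 also changed sign with limma on log2(FPKM + 1), with and without a filter (-0.00644), and on log2(FPKM + 0.1) (-0.00659). At an adjusted p under 0.01, 9 of the 107 tested genes of all pathway lists were higher and 14 lower (19 and 27 at 0.05). Of the 57 tested genes of the 4 target lists, 1 was higher and 9 lower under 0.01. At 0.05, 18.4% of all tested genes were higher and 17.5% lower. Their share under 0.01 is not given, so the counts under 0.01 cannot be set beside it. In these 4 lists, limma on log2(FPKM + 1) without a filter gave 2 higher, and leaving out a sample gave between 2 and 4 higher and between 10 and 26 lower. Of all genes tested, 14.4% were called in either direction in this limma fit and 26.9% to 29.4% with a sample left out. The causes were not tested. Precision is limited by 3 samples a group: 3 counts, the level below which a gene cannot be told from 0, are 0.166 to 0.191 CPM.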

Other observations

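Of the 109 genes in the pathway lists, 2 had too few counts to be tested. FGF21, a hormone released under amino acid and mitochondrial stress, had 9, 2 and 3 counts in si-NC replicates 1, 2 and 3 and 0, 1 and 0 counts in the si-METTL16 replicates. DDIT4L, the relative of DDIT4, had 0, 4 and 0 counts in the si-NC and 0, 1 and 0 counts in the si-METTL16 replicates, at or near the limit of detection in every sample.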
